A study of Sus scrofa with 5 samples.

Results

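The miRNAs of an exosome preparation of bile were set against those of serum, in 2 of the 5 small RNA libraries that the study made from body fluids of the pig. All libraries came from Rongchang pigs at postnatal day 180, with 1 library per fluid and no treatment named in the labels. Exosomes are small vesicles that cells release, here precipitated with a purchased reagent before Trizol extraction of their RNA. The sources used here do not give how many animals gave each fluid, their sex, or whether bile and serum came from the same animals. The study's design text names a HiSeq and its protocol a Genome Analyzer, for all 5 libraries alike. Which instrument was used is therefore not known, and no difference in instrument between bile and serum is stated. Of the 411 miRNA names in each table, 138 had 100 or more counts in bile or in serum and were compared. With 1 library per side there is no replicate check, and every interval below covers counting error only.

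Bile is made by hepatocytes, which secrete bile salts into fine canals between liver cells, and is modified by the epithelium of the bile ducts and stored in the gallbladder, whose wall holds smooth muscle and connective tissue. Serum is what is left of blood after clotting, and it takes up vesicles from red cells, white cells, platelets, endothelium and distant organs. A miRNA is a short RNA, cut as 2 arms (5p and 3p) from a hairpin, that lowers the output of messenger RNAs matched by its seed. In the liver, miR-122 is the classic hepatocyte miRNA, while miR-192 and miR-194 are known from liver, gut and kidney epithelium.

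Bile held 1673239 miRNA counts and serum 473168, so bile was 3.54 times deeper. Levels are given as CPM, the counts of a miRNA as a share of the library's summed miRNA counts, in parts per 1000000. The limit of 100 counts therefore stood at 59.8 CPM in bile and 211 CPM in serum. Every count in both tables was 0 or at least 10, so a listed 0 was read as under 10 counts (5.98 CPM in bile, 21.1 CPM in serum), and a ratio against it is a lower bound. The 138 miRNAs held 99.9% of bile counts and 99.7% of serum counts. Of them, 80 reached 100 counts in both libraries, 35 in bile alone and 23 in serum alone. The last miRNAs inside the limit were miR-500, with 36 counts in bile and 100 in serum, and miR-1306-3p, with 42 and 105. The first outside it were miR-31, with 99 counts in bile and a listed 0 in serum, and miR-205, with a listed 0 in bile and 99 in serum.

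Markers of liver and of red cells were set against the labels, with earlier results of these data known. The liver miRNA miR-122 stood at 54673 CPM in bile and 3893 CPM in serum, and the red cell miRNA miR-451 at 4121 CPM in bile and 84805 CPM in serum. In bile there were 13.3 counts of miR-122 for each count of miR-451, and in serum 21.8 counts of miR-451 for each of miR-122. In plasma miR-122 also stood above miR-451, at 10258.7 and 4139 CPM, so this order alone does not mark out bile. The further hepatocyte miRNA miR-885-5p had 18 counts in bile (10.8 CPM) and was listed at 0 in serum. That bile level is under the 21.1 CPM that a listed 0 stands for in serum. The serum 0 therefore does not separate the fluids.

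Among the 138 miRNAs, 39 were at least 2-fold higher in bile (28.3%) and 74 at least 2-fold higher in serum (53.6%), and 25 lay within 2-fold. The counting interval lay wholly past 2-fold for 32 of the 39 and 68 of the 74. For the 8 miRNAs listed at 0 in serum and the 6 at 0 in bile, it was computed with 10 counts in place of the 0. At 10-fold or more, 9 were higher in bile (6.52%) and 34 in serum (24.6%). The miRNAs higher in bile held 35.4% of bile counts and 5.75% of serum counts. Those higher in serum held 45.6% of serum counts and 4.18% of bile counts. The miRNAs within 2-fold made up 60.3% of bile counts and 48.3% of serum counts, of which miR-148a-3p alone was 32.1% and 18.1%. With TMM, where miR-148a-3p passed 2-fold, those within 2-fold held 13.2% and 23.6%, and on the authors' RPM 5.27% and 13.7%. Across the 138 miRNAs Spearman's rho was 0.55, a description over miRNAs of the same 2 libraries.

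This split rests on how the libraries are scaled. The median log2 ratio of bile over serum was -1.24, meaning that the middle miRNA was 2.36 times higher in serum. With TMM it was -0.12, on the deposited RPM 0.59, and with DESeq2 size factors 0.16. RPM divides by a larger total per library, recovered from the deposited values, of which the listed miRNAs took 15.9% in bile and 4.47% in serum. Which reads that total counts was not examined here. The number 2-fold higher in bile and in serum became 54 and 54 with TMM, 62 and 43 on the authors' RPM, and 57 and 51 with DESeq2 size factors. Measured from the median ratio, 54 miRNAs lay at least 2-fold towards bile (39.1%) and 53 at least 2-fold towards serum (38.4%). Under all 5 scalings 50 miRNAs were higher in bile (36.2%) and 57 were higher in serum (41.3%), while 31 changed side. The 4 alternative scalings moved every log2 ratio towards bile, by 0.27 to 1.83, so that a miRNA higher in bile could not turn. Of the 74 miRNAs 2-fold higher in serum, 57 kept their side. The results below are relative to the other miRNAs of a library, and a direction that changed with the scaling is named as such.

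**Figure D1:**
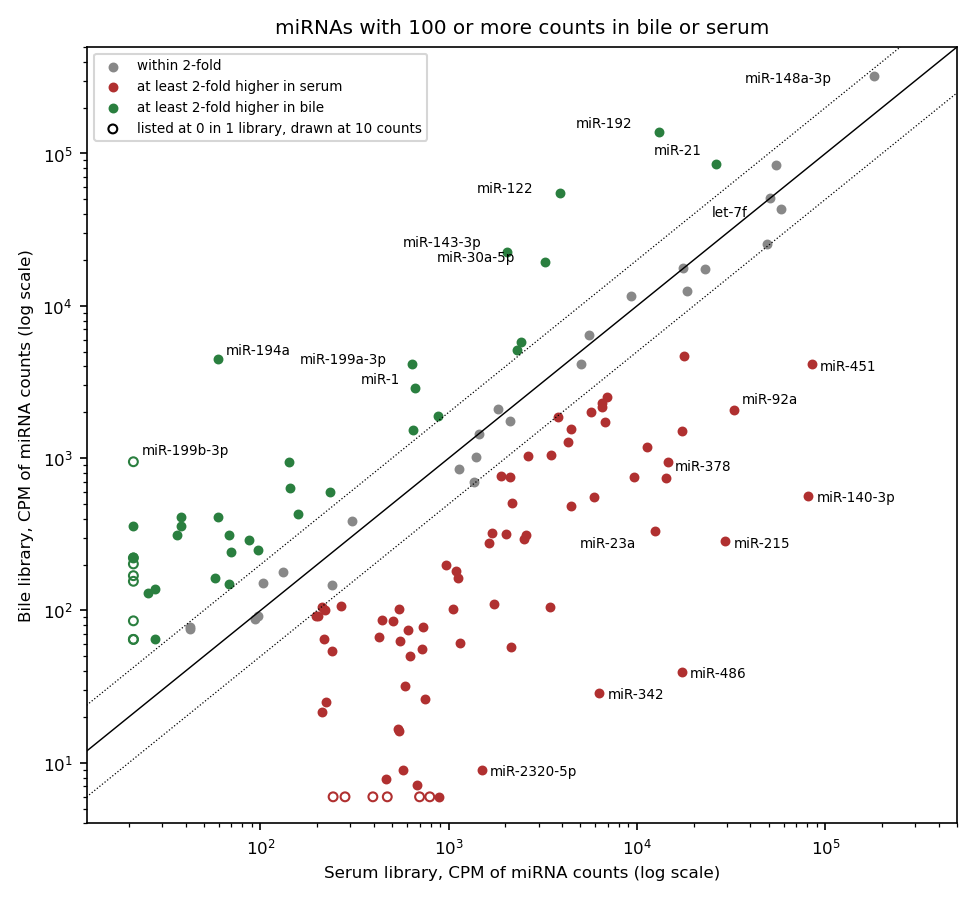
CPM of each of the 138 miRNAs in serum (horizontal) and bile (vertical), both on log scales, with the line of equal levels and dotted lines at 2-fold. miR-194a, miR-122 and miR-192 lie far above the line, and miR-486, miR-342 and miR-140-3p far below it, while miR-148a-3p is the highest point in both libraries.

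**Figure D2:**
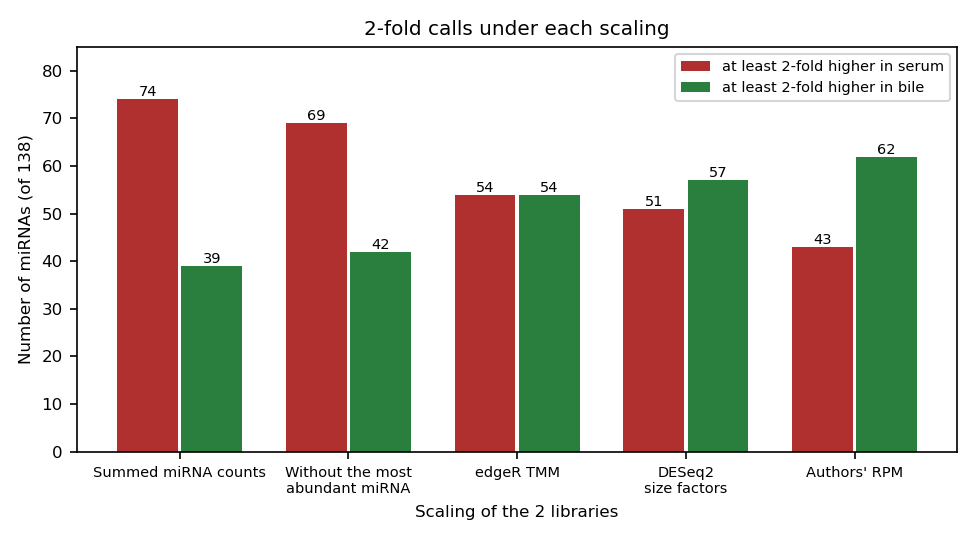
Number of the 138 miRNAs at least 2-fold higher in serum or in bile under each of 5 scalings of the libraries. The excess on the serum side, 74 against 39, is level at 54 and 54 with TMM and turns to 43 against 62 on the authors' RPM.

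The leading miRNA was the same in both fluids. miR-148a-3p, abundant in liver and in secreted vesicles, took 32.1% of bile counts (95% exact interval 32.001 to 32.143) and 18.1% of serum counts (17.97 to 18.19), 1.77 times more in bile. Bile was the more concentrated library: 3 miRNAs made up 50% of its counts and 14 made up 90%, against 6 and 33 in serum. Of the 15 most abundant miRNAs of each library, 9 were shared.

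Several abundant miRNAs stood at nearly the same CPM in both. let-7f, of the let-7 family that restrains proliferation genes, was at 51123 CPM in bile and 50800.1 CPM in serum, though its log2 ratio of 0.01 became 1.13 with TMM and 1.84 on the authors' RPM. let-7a stood at 17580.3 and 17626 CPM, and miR-29a, a repressor of collagen messages, at 1435 and 1441 CPM. For these 3 the interval of the CPM ratio included 1. let-7i was 1.53 times higher in bile (1.51 to 1.55). let-7g was 1.35 times higher in serum (1.33 to 1.37), let-7c 1.30 times (1.28 to 1.33) and miR-26a 1.47 times (1.44 to 1.51). miR-99a stood at 25352 CPM in bile and 48892 CPM in serum. The last 4 miRNAs, and let-7a and miR-29a, changed side with the scaling.

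The liver miRNA miR-122 and the liver and epithelial miRNAs miR-192 and miR-194a were among those furthest towards bile. miR-122 was 14.0 times higher in bile (13.4 to 14.7) and was the fifth most abundant miRNA there. miR-192, second in bile, stood at 137441 CPM against 13050.3 CPM in serum, 10.5 times higher (10.3 to 10.8). miR-194a, whose gene neighbours that of miR-192, had 7450 counts in bile and 28 in serum, 75.2 times higher (52.0 to 113), the largest ratio towards bile. More vesicles from a cell type and more of a miRNA in each vesicle cannot be told apart in such libraries.

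The list of hepatocyte miRNAs and their genomic neighbours had 7 names with 10 arms listed, of which 6 reached the limit. Of these 3 were 2-fold higher in bile, 2 were 2-fold higher in serum and 1, miR-148a-3p, lay within 2-fold, beside 28.3% and 53.6% of all miRNAs compared that were 2-fold higher in bile and in serum. The list's median log2 ratio was 2.11, beside -1.24 over all miRNAs compared. Its arms took 51.8% of bile counts and 22.8% of serum counts. Without miR-148a-3p the shares were 19.7% and 4.698%, or 4.19 times more in bile. The 2 members higher in serum were miR-215 and the minor arm miR-148a-5p, which was 5.07 times higher in serum (4.08 to 6.31).

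miR-215 went opposite to its relative miR-192. The genes lie in a pair of loci, MIR192 beside MIR194A and MIR215 beside MIR194B in the RefSeq annotation, and miR-192 and miR-215 share a seed. miR-215 had 476 counts in bile and 13939 in serum, 104 times higher in serum (94.5 to 114). Of the counts of this pair, miR-192 took 99.79% in bile (99.77 to 99.81) and 30.7% in serum (30.1 to 31.3). Among the neighbours, miR-194a took 99.1% of the counts of miR-194a and miR-194b-5p in bile (98.9 to 99.3), and 43.8% in serum (31.4 to 56.7), the serum share resting on 28 and 36 counts. In both pairs the share of the gene from the MIR192 locus was thus lower in serum. miR-192 and miR-215 are close in sequence, and how reads matching both were assigned is not given, so their separate levels are uncertain.

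miRNAs of connective tissue and smooth muscle were also on the bile side. miR-143-3p, a smooth muscle miRNA, stood at 22678 CPM in bile and 2029 CPM in serum, 11.2 times higher (10.5 to 11.9). miR-199a-3p, known from fibroblasts and liver stellate cells, was at 4156 and 636 CPM, 6.53 times higher (5.82 to 7.36), and its other arm miR-199a-5p was 9.49 times higher (5.95 to 16.1). miR-199b-5p had 378 counts in bile and 10 in serum. miR-199b-3p had 1584 counts in bile and a listed 0 in serum, at least 44.8 times higher, but it is nearly the same sequence as miR-199a-3p. Of the 8 compared members of this list 6 were 2-fold higher in bile, beside 28.3% of all miRNAs compared, and its median log2 ratio was 2.98. Of these 6, miR-199b-3p, miR-199a-5p, miR-199b-5p and miR-145-3p (217 and 12 counts) reached the count limit in bile alone. On the serum side miR-214 did so too. Most of the 6 are arms of miR-199a or miR-199b. The 6 and the median are therefore not separate observations and depend on entry through bile. The list's arms summed to 2.87% of bile and 0.317% of serum counts, 9.06 times more (8.61 to 9.55). Without miR-143-3p the shares were 0.602% and 0.114%. The 2 members on the serum side, miR-145-5p with 175 and 101 counts and miR-214 with 153 and 96, changed side with the scaling.

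The epithelial list had 12 names, of which 6 were among the listed miRNAs, and together these 6 were scarce in both libraries. The other names could not be counted, so the level of epithelial miRNAs as a whole is not known. miR-192 and miR-194a, also known from epithelium, were counted in the hepatocyte list. Of 4 compared members, 3 were 2-fold higher in bile, beside 28.3% of all miRNAs compared. miR-96-5p had 600 counts in bile and 10 in serum, 17.0 times higher (9.16 to 35.6). miR-429, of the miR-200 family that keeps epithelial identity, had 338 counts in bile and was listed at 0 in serum, at least 9.56 times higher. miR-183 was 2.37 times higher in bile (2.10 to 2.68). The fourth, miR-182, had 4187 and 3256 counts and was 2.75 times higher in serum (2.63 to 2.88), which turned on the authors' RPM. Through miR-182 the list's sum was 0.464% of bile and 0.775% of serum counts, a log2 ratio of -0.74 that turned to 1.09 on the authors' RPM, 0.66 with DESeq2 size factors and 0.38 with TMM. Below the limit, miR-31 was listed in bile alone and miR-205 in serum alone.

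Other abundant miRNAs higher in bile have no single cell of origin. miR-21, found in most epithelia and raised in injured liver, stood at 85605 CPM in bile and 26263 CPM in serum, 3.26 times higher (3.20 to 3.32). miR-30a-5p was at 19382 and 3229 CPM, 6.002 times higher (5.70 to 6.32), and its other arm miR-30a-3p was 6.67 times higher (5.22 to 8.65). miR-101 was 2.38 times higher (2.24 to 2.54) and miR-100 2.23 times (2.10 to 2.38).

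Of the lower miRNAs on this side, miR-374a-5p had 688 counts in bile and 18 in serum, and miR-32 had 521 and 17. miR-9843-3p, a name known from livestock, had 689 and 28. Bile also held miR-135 with 370 counts, miR-30c-3p with 283 and miR-204 with 260, all listed at 0 in serum and at least 10.5, 8.003 and 7.35 times higher. The remaining miRNAs with 100 or more counts in bile and a listed 0 in serum were miR-151-5p with 143, and miR-29b and miR-29c with 108 each.

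Of the 3 listed miRNAs of pancreas and endocrine cells, miR-216 and miR-217 stood at 0 in both libraries. miR-7, an endocrine and neural miRNA, was 10.6 times higher in serum (9.85 to 11.4).

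**Figure D3:**
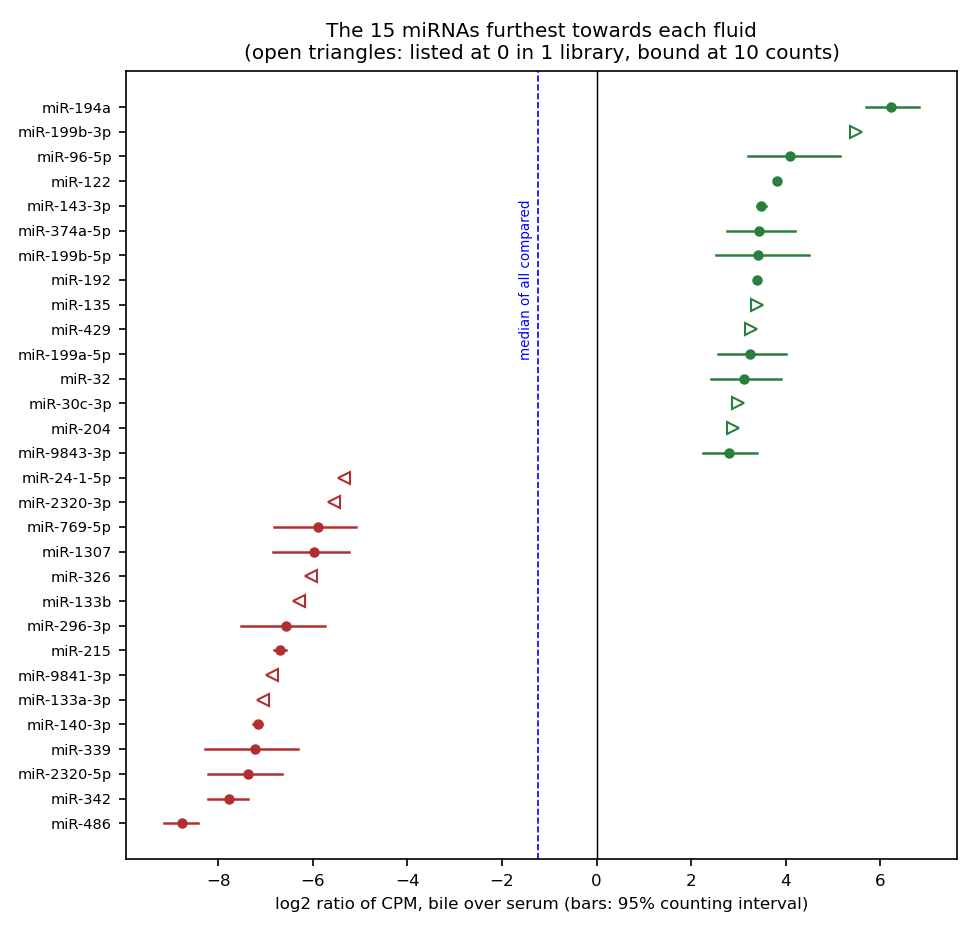
log2 ratio of CPM, bile over serum, for the 15 miRNAs furthest towards each fluid, with 95% counting intervals as bars (narrower than the point where not visible) and open triangles for bounds. The bile side runs from 2.80 for miR-9843-3p to 6.23 for miR-194a, and the serum side from -5.35 for miR-24-1-5p to -8.78 for miR-486.

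Serum carried the red cell miRNAs. miR-486, made in erythroid cells, had 8179 counts in serum and 66 in bile, 438 times higher (344 to 567), the largest ratio of the comparison. miR-451, the second most abundant serum miRNA, was 20.6 times higher (20.1 to 21.1). miR-92a, of the miR-17-92 cluster and abundant in red cells, stood at 32635 CPM in serum and 2076 CPM in bile, 15.7 times higher (15.1 to 16.3). miR-16 was 8.22 times higher (7.42 to 9.13), miR-363 5.91 times (4.78 to 7.32) and miR-185 3.36 times (3.16 to 3.57). All 6 compared members were 2-fold higher in serum, beside 53.6% of all miRNAs compared, with a median log2 ratio of -3.51 against -1.24 over all, and only miR-185 changed side, on the authors' RPM. The 7 listed members took 14.2% of serum counts and 0.793% of bile counts, a factor of 17.9 (17.6 to 18.3), and none was at 0. Without miR-451 the shares were 5.74% and 0.381%. Whether red cell content moved other serum levels was not tested.

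White cell miRNAs followed the same side. miR-342, known from lymphocytes, had 2970 counts in serum and 48 in bile, 219 times higher (165 to 297). miR-150, of mature lymphocytes, was 37.1 times higher (30.1 to 46.3). miR-142, a hairpin used across blood cells, was higher for both arms, miR-142-3p by 33.8 times (22.7 to 52.3) and miR-142-5p by 10.3 times (8.65 to 12.3). miR-146a-5p, which dampens inflammatory signalling, stood at 11233 CPM in serum and 1175 CPM in bile. miR-181b was 9.38 times (7.65 to 11.6) and miR-181a 4.31 times (3.93 to 4.72) higher in serum. Of 9 compared members 8 were 2-fold higher in serum and none in bile, beside 53.6% and 28.3% of all miRNAs compared, with a median of -3.26. The exception was miR-146b, with 245 counts in bile and 114 in serum, within 2-fold, and both it and miR-155-5p, with 168 and 104 counts, changed side with the scaling. White cell miRNAs summed to 2.46% of serum and 0.221% of bile counts, and miR-223 was not analysed here.

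The list for platelets and endothelium was less even. Of 10 compared arms 7 were 2-fold higher in serum, not far from the 53.6% of all miRNAs compared, 1 in bile and 2 within 2-fold. The list's median log2 ratio was nonetheless -3.35, beside -1.24 over all miRNAs compared. Its arms took 6.48% of serum counts and 1.23% of bile counts. miR-126-3p, the endothelial miRNA, stood at 4445 CPM in serum and 488 CPM in bile, 9.10 times higher (8.39 to 9.88). miR-423-5p was 15.5 times (14.7 to 16.4) and miR-423-3p 32.8 times (28.0 to 38.5) higher in serum. miR-23a, of an endothelial and blood cell cluster, was 37.5 times higher (34.4 to 41.0). miR-191 was 2.83 times higher (2.70 to 2.97), and this turned on the authors' RPM. miR-151-3p was at 6458 CPM in bile and 5554 CPM in serum.

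The miR-17-92 cluster and its paralogs, which promote proliferation, had 6 compared members, all 2-fold higher in serum, beside 53.6% of all miRNAs compared. miR-19b had 255 counts in serum and 28 in bile, 32.2 times higher (21.8 to 49.4). miR-92b-3p was 8.76 times higher (6.95 to 11.1), miR-17-5p 6.83 times (5.89 to 7.93) and miR-20a 2.83 times (2.60 to 3.08). The direction held under all 5 scalings for 5 of the 6, with miR-20a turning on the authors' RPM. The list's median was -2.95, and miR-92a and miR-363 are in the red cell list as well.

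Several of the miRNAs furthest towards serum belong to none of these lists. miR-140-3p, whose hairpin lies in a gene active in cartilage, was the third most abundant serum miRNA with 38451 counts (8.13% of the library) and had 944 in bile, 144 times higher (135 to 154). miR-378, nested in a gene of energy metabolism, stood at 14325 CPM in serum and 745 CPM in bile, 19.2 times higher (18.1 to 20.5). miR-320 was 12.8 times (11.98 to 13.59), miR-139-5p 15.6 times (13.3 to 18.4) and miR-574 18.8 times (15.1 to 23.4) higher.

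A further group was near absent from bile. miR-2320-5p had 707 counts in serum and 15 in bile, and miR-339 had 420 and 10. miR-296-3p had 321 and 12, miR-1307 269 and 15, and miR-769-5p 219 and 13. Listed at 0 in bile were miR-9841-3p with 331 counts in serum, at least 117 times higher, and miR-326 with 187, at least 66.1 times. The same held for miR-2320-3p with 133 and miR-24-1-5p with 115. miR-339 is also listed as miR-339-5p, with 86 counts in serum and 0 in bile, so its reads may be divided between names.

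The other blood fluid, plasma, did not share all of these serum levels. miR-486 was at 1655 CPM in plasma, miR-140-3p at 1487 CPM and miR-215 at 2679 CPM, each between bile and serum. miR-451 stood at 4139 CPM in plasma, near its bile level of 4121 CPM, while miR-342, at 17.3 CPM, and miR-92a, at 546 CPM, were lower than in bile. miR-378 stood far higher in plasma, at 413974 CPM, than in bile or serum. On the bile side, miR-122 was at 10258.7 CPM in plasma, miR-192 at 3795 CPM and miR-194a at 13.9 CPM. These values are of a single further library, in which miR-378, miR-320, at 256353 CPM, and miR-423-5p, at 168632 CPM, took most counts, and no ratio to bile was formed.

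Striated muscle miRNAs were divided between the fluids. miR-1, of heart and skeletal muscle and also found in smooth muscle, had 4827 counts in bile and 313 in serum, 4.36 times higher in bile (3.89 to 4.90). miR-499-5p was 3.34 times higher in bile (2.42 to 4.71). miR-133a-3p, with 375 counts in serum, and miR-133b, with 223, were both listed at 0 in bile, at least 133 and 78.9 times higher in serum. miR-206, a skeletal muscle miRNA, was 5.28 times higher in serum (4.34 to 6.45). The 3 higher in serum kept their side under the other scalings. miR-208b, a heart miRNA, was listed at 0 in both.

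The let-7 and miR-30 families took near equal shares of the miRNA counts of both libraries, with log2 ratios of their sums of 0.06 and 0.07, which became 1.18 and 1.19 with TMM. The 9 listed let-7 arms took 21.7% of bile counts and 20.8% of serum counts. Of them 2 were 2-fold higher in bile, 2 in serum and 5 within 2-fold. Over all miRNAs compared 28.3% were 2-fold higher in bile and 53.6% in serum. The 2 higher in serum were both arms of let-7d. let-7e was 4.40 times higher in bile (3.44 to 5.71) and miR-98 2.15 times (1.94 to 2.39). let-7d-5p was 2.50 times higher in serum (2.29 to 2.73), which turned on the authors' RPM and with DESeq2 factors, and let-7d-3p 12.3 times (9.65 to 15.9). The miR-30 arms took 2.81% of bile and 2.67% of serum counts. In bile miR-30a-5p was the leading arm, with 19382 CPM. In serum miR-30d led with 17791 CPM, 3.77 times its bile level (3.66 to 3.89).

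The miR-99, miR-100 and miR-125 family had 3 of 5 members 2-fold higher in bile, namely miR-125a, miR-99b and miR-100, and none in serum, beside 28.3% and 53.6% of all miRNAs compared. miR-125a was 2.85 times higher (1.92 to 4.40) and miR-99b 2.70 times (2.13 to 3.47). Within the HOX gene clusters, miR-10a-5p, at 4136 CPM in bile and 5045 CPM in serum, lay within 2-fold and miR-10b was 2.84 times higher in serum (2.70 to 2.98), and both changed side with the scaling. Of the imprinted DLK1-DIO3 locus only miR-127 of 19 listed arms was above 0 in these libraries, with 108 counts in bile and 13 in serum.

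**Figure D4:**
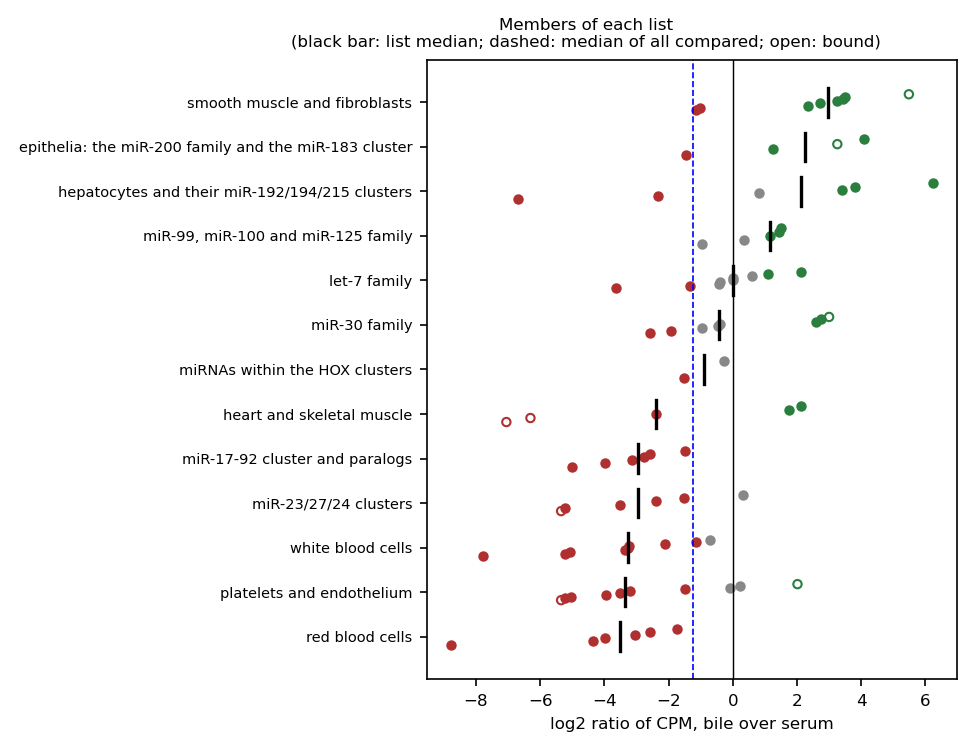
log2 ratio of CPM, bile over serum, for each compared member of the lists with 2 or more such members, with the list median as a black bar, the median of all 138 miRNAs as a dashed line and bounds as open circles. The medians run from -3.51 for red cells to 2.98 for smooth muscle and fibroblasts.

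miRNAs of neighbouring genes were then compared, since such hairpins are often cut from a shared transcript. Genes within 10 kb of each other in RefSeq Sscrofa11.1 were taken as neighbours. In 22 such loci 2 or more hairpins could be compared, each by its arm with more counts over both libraries. Some mature miRNAs have copies in 2 loci, and miR-181a with miR-181b was counted as 2 of the 22. The ratio of bile to serum spread over 2-fold or more within 17 of the 22 loci, and under 2-fold within 5. The share among miRNAs that are not neighbours was not computed. Over all miRNAs compared the log2 ratio ran from -3.29 at the 25th percentile to 1.24 at the 75th. These counts therefore do not set neighbours apart from other miRNAs. Because members of a locus are set against each other, the spread does not depend on the scaling of the libraries.

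The close loci included miR-99a with let-7c and miR-191 with miR-425-5p, and the trio miR-125a, let-7e and miR-99b, all higher in bile. On CPM, 4 loci had members at least 2-fold higher in opposite fluids, a count that depends on the scaling. In the miR-183, miR-96 and miR-182 locus the log2 ratios were 1.24, 4.08 and -1.46. miR-222 was 4.60 times higher in bile (3.22 to 6.80) while its neighbour miR-221-3p was 6.03 times higher in serum (5.22 to 6.97). miR-222 took 63.3% of this pair's counts in bile (59.9 to 66.6) and 5.85% in serum (4.04 to 8.16). The others were miR-143-3p with miR-145-5p and miR-199a-3p with miR-214. The first of these rests on the arm taken for miR-145, since miR-145-3p, at a log2 ratio of 2.35, lay on the side of miR-143-3p. Of these 4, only the miR-221 and miR-222 locus kept opposite calls with TMM and with DESeq2 size factors, and none did on the authors' RPM. The locus of miR-24-3p, miR-27b-3p and miR-23b, not among the 4, gained opposite calls under each of these 3 scalings.

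In both loci that hold miR-23 and miR-27, miR-27 took a larger share of the pair in bile than in serum. How reads matching several names were handled is not given, so these loci may not be separate observations. miR-27a made up 82.4% of the counts of miR-27a and miR-23a in bile (81.0 to 83.7) and 26.2% in serum (25.3 to 27.2). miR-27b-3p made up 97.3% of its pair with miR-23b in bile (97.0 to 97.5) and 84.4% in serum (83.4 to 85.4). miR-24-3p, which both loci encode, was 11.4 times higher in serum (10.93 to 11.95).

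**Figure D5:**
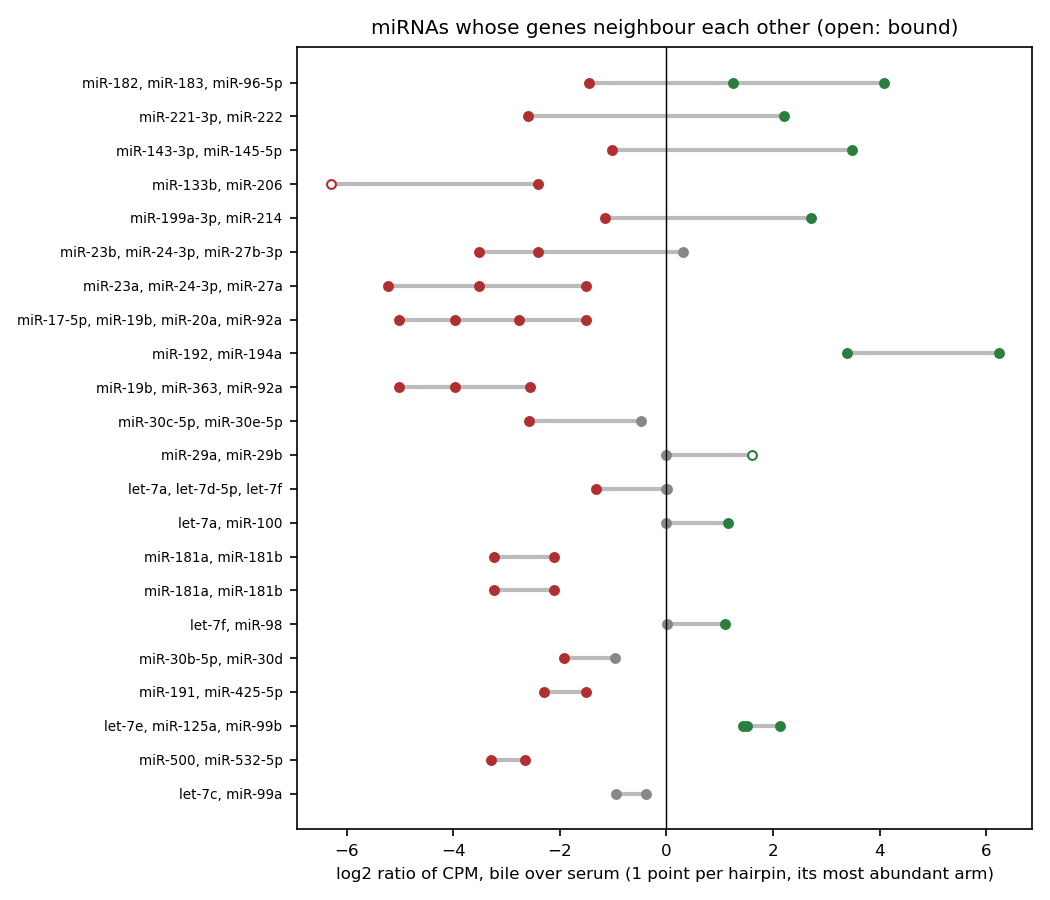
log2 ratio of CPM, bile over serum, for hairpins of neighbouring genes, 1 row per locus and 1 point per hairpin (its more abundant arm; open for a bound). The widest row, miR-182 to miR-96-5p, runs from -1.46 to 4.08, and miR-99a with let-7c lies closest together.

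Arms of 1 hairpin were then compared. Of 46 hairpins with both arms named, 19 had both arms above 0 in both libraries. The arms' ratios of bile to serum lay within 2-fold of each other for 8 of the 19 and further apart for 11, of which 9 had the 5p arm further towards bile. The share for arms of different hairpins was not computed, so these counts do not set hairpins apart from other pairs. Some of the 11 rest on few counts. miR-10a-3p had 16 in bile and 13 in serum, miR-664-3p 20 and 14, and miR-140-5p 12 in bile. miR-30e, miR-30a and miR-425 were the closest, with miR-30e-5p making up 54.3% of its hairpin's counts in bile (52.5 to 56.0) and 55.3% in serum (52.5 to 58.2). The widest gap towards 5p was miR-126, where the 5p arm was 15.3% of counts in bile (13.1 to 17.8) and 2.05% in serum (1.49 to 2.74). miR-361-5p took 77.1% of its hairpin in bile (71.1 to 82.3) and 31.5% in serum (27.004 to 36.297), so that the leading arm changed between the fluids.

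miR-145 went the other way, with 217 counts of the 3p arm and 175 of the 5p arm in bile against 12 and 101 in serum. Its 3p arm, usually the minor one, thus took 55.4% of counts in bile and 10.6% in serum. miR-30c had 461 counts of its 5p arm and 283 of its 3p arm in bile, and 777 and a listed 0 in serum. The name miR-30c covers 2 gene copies, and miR-30c-1-3p is listed apart with 11 counts in bile and 0 in serum. The counts of miR-30c are therefore not those of 1 hairpin. On CPM the arms of miR-145 and of miR-30c were at least 2-fold higher in opposite fluids. For miR-145 this did not hold under any of the 4 alternative scalings, and its 5p arm, at -1.03, came to 0.09 with TMM and 0.80 on the authors' RPM. For miR-30c it was lost on the authors' RPM. Other hairpins gained opposite arms. These were miR-126 with TMM, DESeq2 size factors and the authors' RPM, and miR-148a with TMM. With totals without the most abundant miRNA they were miR-148a and miR-664. For miR-148a the minor 5p arm took 0.027% of counts in bile (0.0228 to 0.0318) and 0.243% in serum (0.211 to 0.278).

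Of 209 names above 0 in either library, 150 were listed in both, 29 in bile alone and 30 in serum alone. Of the 71 among them below the limit of 100 counts, 26 were listed in both, 21 in bile alone and 24 in serum alone. The bile-only names took 0.234% of bile counts and the serum-only names 0.427% of serum counts. Bile listed 179 names and serum 180, but with bile thinned to the depth of serum and counts under 10 set to 0, 142 names remained in bile. By abundance, of 25 miRNAs with 10000 CPM or more in either library 5 were 2-fold higher in bile and 11 in serum. Of 45 between 1000 and 10000 CPM, 7 and 30 were, and of 68 below 1000 CPM, 27 and 33 were, a class in which the deeper bile library could enter miRNAs at a lower CPM.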

How the data were processed

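The authors deposited 1 table per library with a read count for each of 411 mature miRNA names and a second, normalized column. Per the submitters' processing notes, bcl2fastq (version 2.17) and the pig build Sscrofa10.2 were used. The sources used here give neither the aligner, nor the miRNA annotation, nor how reads matching several names were handled. Tested on the files, count over normalized value gave 1 constant per library, a total of 10555126 in bile and 10593418 in serum. The deposited normalized values are therefore RPM against that total.

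Counts were divided by each library's summed counts (CPM). Ratios carry exact conditional binomial 95% intervals and shares exact Clopper-Pearson intervals. Reads carry no molecular identifiers in the protocol, so these cover counting error only. No test was made, because each fluid has 1 library. A listed 0 was set to 10 counts in ratios and in their intervals. The limits were 100 counts in either library and 2-fold. Named miRNAs were the 15 most abundant per library, the 15 largest ratios per direction, list members, arms of a hairpin, neighbours within 10 kb in RefSeq (in place of a hand-written cluster list), the most equal and those at the limit. miR-101, miR-320, miR-378, miR-574 and the miRNAs that turned with the scaling were named after their values were seen. Members and lists were chosen with earlier results of these data known. Of 330 hairpin names, 293 matched a RefSeq miRNA gene (Sscrofa11.1, another build, so no coordinates are given). Planned sequence features were not analysed here. Python 3.11.15 and scipy 1.17.1 were used, with edgeR 4.0.16 (TMM) and DESeq2 1.42.0 (size factors over bile and serum) for alternative scalings. The ratio and interval code was tested on simulated data.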

Additional observations from a re-analysis of the deposited data

How the results depend on the processing

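Each result was recomputed under other scalings, count limits and values for a listed 0, with bile thinned to the depth of serum and with arms summed, and relative to the median ratio, a choice added after the data were seen. The median log2 ratio of bile over serum, -1.24, became -0.12 with TMM, 0.16 with DESeq2 size factors, -0.97 with totals without the most abundant miRNA, 0.59 on the authors' RPM, -1.40 at 200 or more counts, -1.50 at 10 or more, -1.41 with arms summed and -1.66 with bile thinned. The counts of miRNAs 10-fold higher in bile and in serum, 9 and 34, became 20 and 21 with TMM, 24 and 21 with DESeq2 size factors, and 30 and 17 on the authors' RPM. Reading a listed 0 as 3 counts gave 15 at 10-fold in bile. At 2-fold the authors' RPM gave 62 in bile and 43 in serum, and a limit of 10 counts gave 124 in serum. The other counts stayed within 1.5 times.

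Of the miRNAs 2-fold higher in serum, 17 turned to bile on the authors' RPM. Their log2 ratios there were 0.80 for miR-145-5p, 0.79 for miR-28-3p, 0.72 for miR-345-3p, 0.70 for miR-155-5p, 0.68 for miR-214, 0.50 for let-7d-5p, 0.49 for miR-361-5p, 0.48 for miR-7134-3p, 0.37 for miR-182, 0.33 for miR-191 and miR-20a, 0.32 for miR-10b, 0.31 for miR-27a, 0.22 for miR-103, 0.092 for miR-186, 0.080 for miR-185 and 0.074 for miR-28-5p. The summed miR-23, miR-24 and miR-27 list came to 0.25. With DESeq2 size factors miR-145-5p and miR-28-3p came to 0.37, miR-345-3p to 0.30, miR-155-5p to 0.27, miR-214 to 0.25, let-7d-5p to 0.077, miR-361-5p to 0.065 and miR-7134-3p to 0.050. With TMM miR-28-3p came to 0.084, miR-145-5p to 0.088 and miR-345-3p to 0.013. Relative to the median ratio they were 0.21 for miR-145-5p, 0.20 for miR-28-3p, 0.13 for miR-345-3p, 0.11 for miR-155-5p and 0.087 for miR-214. Each alternative scaling moved every ratio towards bile, so a miRNA higher in bile could not turn. No paired analysis was possible because each fluid has 1 library. Depth limits the ratios that rest on few counts on 1 side, such as 10 counts of miR-96-5p in serum and 10 of miR-339 in bile.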
